A study of Mus musculus with 4 samples.

Results

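The genes described here encode enzymes that modify, fold and crosslink collagen, and they were chosen by symbol. They were the lysyl oxidases Lox, Loxl1, Loxl2, Loxl3 and Loxl4, the lysyl hydroxylases Plod1, Plod2 and Plod3, the prolyl hydroxylase subunit P4ha1 and the collagen chaperone Serpinh1. Of these 10 genes, 9 were among the 19938 genes with a probe set annotated to that gene alone. Loxl2 is outside that number, since it was covered by a probe set shared with the predicted gene Gm21451. Where a gene had several probe sets, the one with the highest mean over the arrays was used.

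The series measured RNA of C57BL/6 mouse cells in culture, and its stated purpose was to compare the effects of bFGF, basic fibroblast growth factor, on mesenchymal stem cells (MSC) of the bone marrow. There were 4 groups with 1 array each. MSC with bFGF and MSC without bFGF were cells flushed from femurs and tibiae that had attached to plastic, grown in the same modified F12 medium with serum and with bFGF at 1 or 0 ng/ml. Osteoblasts were released by enzymes from the calvariae, the flat skull bones, of newborn mice, with the cells of the last digestions pooled, and were grown in DMEM with serum. Embryonic stem (ES) cells were the further control, and their culture conditions are not given in the labels. The age of the marrow donors is not given either. Between MSC and osteoblasts, the tissue of origin, the way of isolation and the medium differed together with the cell type and cannot be told apart.

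Collagen chains are modified while they enter the endoplasmic reticulum. Prolyl hydroxylases make the triple helix stable, lysyl hydroxylases prepare lysines for crosslinking and sugar attachment, and the chaperone Serpinh1 holds the folded helix until it is exported. Outside the cell the propeptides are cut off, and lysyl oxidases convert lysines and hydroxylysines to aldehydes that join neighbouring molecules. In bone these crosslinks give the type I collagen matrix its strength.

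Values are log2 levels as deposited, so a difference of 1 is 2-fold. Each difference is the level in the group named first minus that in the other. A gene was counted in a comparison when the higher of its levels lay above a floor, the median of the array's probe sets with a single symbol, which was 6.32 in MSC with bFGF, 6.29 in MSC without bFGF and 6.46 in both osteoblasts and ES cells. With 1 array per group there was no replicate check, no test and no error between cultures. As a description of measurement noise alone, the differences of probe sets of the same gene had an SD of 0.15 for MSC with against without bFGF and of 0.19 to 0.25 for the other pairs. Levels of different genes are not set against each other, because probes differ in response.

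The labelled cell types were set against lists of marker genes. Of 12 macrophage genes, 11 lay above the floor in MSC with bFGF, 8 in MSC without bFGF, 12 in osteoblasts and 11 in ES cells. The log2 of their summed level was 13.65 in MSC with bFGF, 10.75 in MSC without bFGF, 15.08 in osteoblasts and 12.19 in ES cells. Of 8 measured osteoblast genes, 2 lay above the floor in osteoblasts, Dlx5 and Pth1r, while Alpl, Sp7 and Ibsp lay under it. Above the floor were also 0 in MSC with bFGF, 2 in MSC without bFGF and 2 in ES cells. Their log2 summed level was 8.34 in MSC with bFGF, 8.59 in MSC without bFGF, 8.92 in osteoblasts and 9.13 in ES cells. Dlx5 was highest in osteoblasts, at 7.49, and Alpl in ES cells, at 7.64. By count and sum, this list did not set osteoblasts apart from ES cells. Fibroblast and stroma genes above the floor numbered 7 of 11 in MSC with bFGF, 7 in MSC without bFGF, 10 in osteoblasts and 9 in ES cells. Their log2 summed level was 12.18 in MSC with bFGF, 12.69 in MSC without bFGF, 14.34 in osteoblasts and 12.65 in ES cells. In the MSC arrays the sum rests largely on Col1a2, at 11.66 with bFGF and 12.16 without. Gene by gene, 9 of 11 were lower and 2 higher than in ES cells in each MSC array. The medians of these differences were -1.66 with bFGF and -0.62 without. Of 11 measured genes of marrow stroma and niche, 9 lay above the floor in MSC with bFGF, 6 in MSC without bFGF, 9 in osteoblasts and 7 in ES cells. In both MSC arrays the defining genes Lepr and Cxcl12 lay under it, and Kitl, at 9.15 with bFGF and 8.73 without, above it. Of 12 ES cell genes, 10 lay above the floor in ES cells and 1 or 2 on the other arrays. In mixed cultures, fewer cells of a type and less RNA per cell cannot be told apart, and the part that macrophage or stroma content has in the differences given here was not tested.

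Promoter sequences were available for 5 of the 10 genes and were matched by symbol to the RefSeq table of the mouse assembly GRCm38.p6. The 3 shown here are those of Plod1, P4ha1 and Serpinh1, and each lies directly before the annotated gene start, 5′ to 3′ on the strand of the gene. Plod1 had the largest difference between the MSC arrays among members above the floor, and P4ha1 and Serpinh1 had small differences there. Capitals mark ACGTG or GCGTG on either strand, the short core that hypoxia-inducible factors recognise.
Plod1, chr4:147936777-147937026, minus strand: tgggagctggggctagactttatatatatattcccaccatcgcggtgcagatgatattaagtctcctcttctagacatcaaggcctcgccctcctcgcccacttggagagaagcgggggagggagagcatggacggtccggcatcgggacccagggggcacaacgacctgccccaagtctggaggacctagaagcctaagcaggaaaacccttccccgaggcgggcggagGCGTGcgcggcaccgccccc
P4ha1, chr10:59323046-59323196, plus strand: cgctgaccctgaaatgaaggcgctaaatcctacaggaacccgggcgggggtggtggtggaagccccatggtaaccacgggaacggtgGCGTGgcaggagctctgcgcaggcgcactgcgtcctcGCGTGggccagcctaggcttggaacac
Serpinh1, chr7:99353240-99353489, minus strand: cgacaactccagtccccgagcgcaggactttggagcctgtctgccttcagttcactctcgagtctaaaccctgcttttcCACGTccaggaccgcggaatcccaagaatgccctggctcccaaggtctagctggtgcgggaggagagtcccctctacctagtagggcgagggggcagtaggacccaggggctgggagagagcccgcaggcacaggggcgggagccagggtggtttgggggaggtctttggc
Plod1 held 1 match in 250 bases, starting 20 bases before the gene. P4ha1 held 2 in 151 bases, where the table's window begins, starting 64 and 27 bases before the gene. Serpinh1 held 1 in 250 bases, starting 171 bases before the gene. Either form was present in the first 250 bases of 38.6% of the 32851 promoters in the table, and in 23.7% within 151 bases, so such matches are common. The heat shock element letters GAANNTTC and TTCNNGAA, searched because Serpinh1 is a known target of the heat shock response, were found 0 times in each of the 3. These occurred in 6.69% and 7.17% of all promoters over 250 bases. A match describes the letters and is no measure of binding.

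Lox was the member with the widest range over the arrays. It encodes the copper-dependent oxidase that starts crosslinking of fibrillar collagen and elastin. Its level was 7.01 in MSC with bFGF, 7.14 in MSC without bFGF, 11.76 in osteoblasts and 9.14 in ES cells. Both MSC arrays were thus low, although above the floor, ES cells stood between, and osteoblasts were highest. Beside osteoblasts, Lox was 26.9-fold lower in MSC with bFGF, a difference of -4.75 that was the 16th lowest of 10798 genes. In MSC without bFGF it was 24.7-fold lower than in osteoblasts, a difference of -4.63 that ranked 36 from the lowest of 10973. Against ES cells it was lower by 4.36-fold in MSC with bFGF, at -2.13, and differed by -2.00 in MSC without bFGF. Osteoblasts exceeded ES cells by 6.17-fold, or 2.63.

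The other lysyl oxidases did not share that range. Loxl1, which acts mainly on elastin, had a level of 8.81 in MSC with bFGF, 8.82 in MSC without bFGF, 9.62 in osteoblasts and 8.37 in ES cells. It was lower than in osteoblasts by less than 2-fold in both MSC arrays, at -0.81 with bFGF and -0.80 without, and above ES cells by 0.44 and 0.45. Loxl3, which is needed for palate and spine development in mice, stood at 7.59 in MSC with bFGF, 7.97 in MSC without bFGF, 9.91 in osteoblasts and 8.65 in ES cells. Beside osteoblasts it was 5.00-fold lower in MSC with bFGF, at -2.32, and 3.84-fold lower in MSC without bFGF, at -1.94. Its order over the arrays was that of Lox with a smaller span.

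Loxl4 was near the floor throughout, with 6.19 in MSC with bFGF, 5.90 in MSC without bFGF, 6.84 in osteoblasts and 6.94 in ES cells. Both MSC levels lay under the floor, so their order is not read here. Its other probe set lay under the floor on all 4 arrays, at 4.80 in MSC with bFGF, 4.53 in MSC without bFGF, 5.41 in osteoblasts and 4.91 in ES cells. The probe sets gave opposite signs for osteoblasts minus ES cells, -0.09 for the one used and 0.50 for the other. Loxl4 was the member without its highest level in osteoblasts.

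Loxl2 acts on collagen of basement membranes as well as fibrillar collagen. Its gene lies at chr14:69608692-69695834 and Gm21451 at chr14:69390417-69477453 in GRCm38.p6, 131239 bases apart, and the shared probe set cannot separate their transcripts. That probe set read 4.70 in MSC with bFGF, 5.73 in MSC without bFGF, 11.34 in osteoblasts and 8.59 in ES cells. The MSC levels were under the floor and the other levels above it, an order of arrays like that of Lox. Its differences from osteoblasts were -6.65 in MSC with bFGF and -5.62 in MSC without bFGF, and the sizes depend on background in the MSC arrays. The shared probe set entered no count of members.

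The lysyl hydroxylases also had their highest levels in osteoblasts. Plod1, which hydroxylates lysines of the helical part of collagen and whose loss in humans causes kyphoscoliotic Ehlers-Danlos syndrome, had a level of 8.18 in MSC with bFGF, 7.65 in MSC without bFGF, 9.70 in osteoblasts and 8.49 in ES cells. Plod2, the hydroxylase of the telopeptides, whose loss in humans causes Bruck syndrome, stood at 8.37 in MSC with bFGF, 8.57 in MSC without bFGF, 10.44 in osteoblasts and 8.87 in ES cells. Plod3, which also attaches sugars to hydroxylysine, stood at 9.53 in MSC with bFGF, 9.46 in MSC without bFGF, 10.36 in osteoblasts and 8.99 in ES cells. ES cells were above both MSC arrays for Plod1 and Plod2 but lowest for Plod3. Beside osteoblasts, Plod1 was 2.89-fold lower in MSC with bFGF, at -1.53, and 4.15-fold lower in MSC without bFGF, at -2.05. Plod2 differed from osteoblasts by -2.07 in MSC with bFGF and by -1.87, or 3.66-fold, in MSC without bFGF. The matching differences of Plod3 were -0.84 and -0.90.

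P4ha1, the catalytic subunit that pairs with P4hb in collagen prolyl 4-hydroxylase, had a level of 9.78 in MSC with bFGF, 9.82 in MSC without bFGF, 10.35 in osteoblasts and 9.11 in ES cells. Serpinh1, also called HSP47, the collagen-specific chaperone of the endoplasmic reticulum, stood at 9.32 in MSC with bFGF, 9.49 in MSC without bFGF, 10.11 in osteoblasts and 9.13 in ES cells. Both genes were highest in osteoblasts, with small steps between the arrays. P4ha1 differed from osteoblasts by -0.57 in MSC with bFGF and -0.54 in MSC without bFGF, and from ES cells by 0.67 and 0.71. Serpinh1 differed from osteoblasts by -0.79 with bFGF and -0.62 without. From ES cells Serpinh1 differed by 0.35 in MSC without bFGF and by 0.18 in MSC with bFGF, a value within the probe set noise that became -0.01 when a loess curve was removed.

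**Figure D1:**
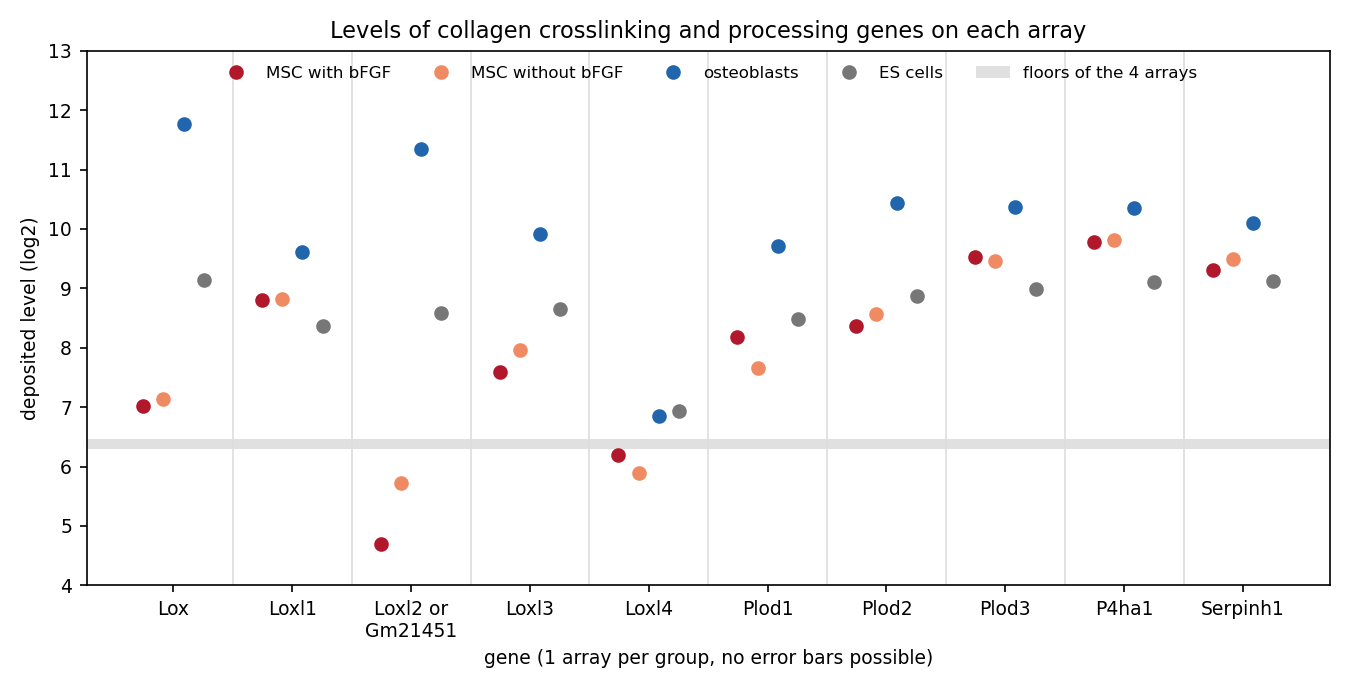
Deposited log2 level (vertical axis) of each gene on the 4 arrays, with 1 point per array and a grey band for the floors; levels are to be compared within a gene. Osteoblasts are highest for 8 of the 9 genes with a probe set of their own, and Lox spans 7.01 in MSC with bFGF to 11.76 in osteoblasts.

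The members were compared between the MSC arrays with and without bFGF. Of 9 members with their own probe set, 8 lay above the floor, and 0 differed by 2-fold or more, in either direction, in MSC with bFGF minus MSC without bFGF. Over all 10483 genes counted, 4.09% had a positive and 0.467% a negative difference of that size. For 8 genes, a count of 0 is near these shares, so it does not set the members apart. The median difference of these 8 members was -0.08, against -0.00 over all genes counted. Plod1 was the farthest, higher with bFGF by 0.52 or 1.44-fold, and it ranked 889 from the highest. Its difference was 3.38 times the SD of the probe set noise. Loxl3 was lower with bFGF by 0.38 on the log2 scale, or -2.46 times that SD, and ranked 959 from the lowest. Lox, Loxl1, Plod3 and P4ha1 differed by less than 1 SD of the probe set noise, with values of -0.13, -0.01, 0.06 and -0.04. Plod2 differed by -0.20 and Serpinh1 by -0.17. Between the same arrays the macrophage markers Cd68 and Fcer1g differed by 2.75 and 2.78, larger differences than that of any member.

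All 9 members with their own probe set were lower in both MSC arrays than in osteoblasts. In MSC with bFGF, 4 of 9 were 2-fold or more lower and 0 higher, where 9.71% of 10798 genes were lower and 7.5% higher. In MSC without bFGF, 4 of 9 were 2-fold or more lower and 0 higher, where 13.3% of 10973 genes were lower and 8.17% higher. The 4 genes were Lox, Loxl3, Plod1 and Plod2 in both comparisons, which share the osteoblast array. The median of the members was -0.84 in MSC with bFGF and -0.95 in MSC without bFGF, and that of all genes counted was 0.09 in each. Loxl1, Loxl4, Plod3, P4ha1 and Serpinh1 lay between -0.54 and -0.95. The summed macrophage and fibroblast markers were also highest in osteoblasts, at 15.08 and 14.34 on the log2 scale. The fibroblast sum there rests largely on Col1a2, at 12.98, and Col1a1, at 12.60. These genes, Col3a1 and Postn also stand on the lists of collagen chains or lysyl oxidase partners given below. The fibroblast list is thus not a separate measure of stroma.

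Against ES cells the members lay on both sides of 0. In MSC with bFGF, Lox at -2.13 and Loxl3 at -1.07 were 2-fold or more lower and 0 members were higher, where 10.6% of 10932 genes were lower and 11.3% higher. In MSC without bFGF, Lox at -2.00 and Loxl4 at -1.04 were lower and 0 were higher, where 11.8% of 10977 genes were lower and 10.4% higher. The call of Loxl4 was lost with the mean of its probe sets, at -0.71, with loess, at -0.99, with repeated quantile normalization, at -0.97, and with a floor at the 75th percentile. Loxl3 differed by -0.69 in MSC without bFGF. Plod1 was at -0.32 in MSC with bFGF and -0.84 in MSC without bFGF, and Plod2 at -0.50 and -0.30. Loxl1, Plod3 and P4ha1 were above ES cells by 0.44 to 0.71 in both MSC arrays. For Loxl4 the MSC level was under the floor. The median of all genes counted was itself 0.12 for MSC with bFGF and 0.10 for MSC without bFGF, and centring on these medians shifted each member by as much without a change of sign.

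Osteoblasts exceeded ES cells by 2-fold or more for 7 of 9 members and were lower for 0, where 12.3% of 10927 genes were higher and 8.83% lower. The members' median was 1.25 and that of all genes counted 0.03. Lox stood at 2.63, Plod2 at 1.57, Plod3 at 1.37, Loxl3 at 1.26, Loxl1 at 1.25, P4ha1 at 1.24 and Plod1 at 1.21. Serpinh1, at 0.98 or 1.97-fold, was just under the 2-fold line. Loxl4 was at -0.09 and has no settled sign, since the mean of its probe sets gave 0.20. The lead of osteoblasts over ES cells was thus of similar size in 7 members and larger in Lox.

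**Figure D2:**
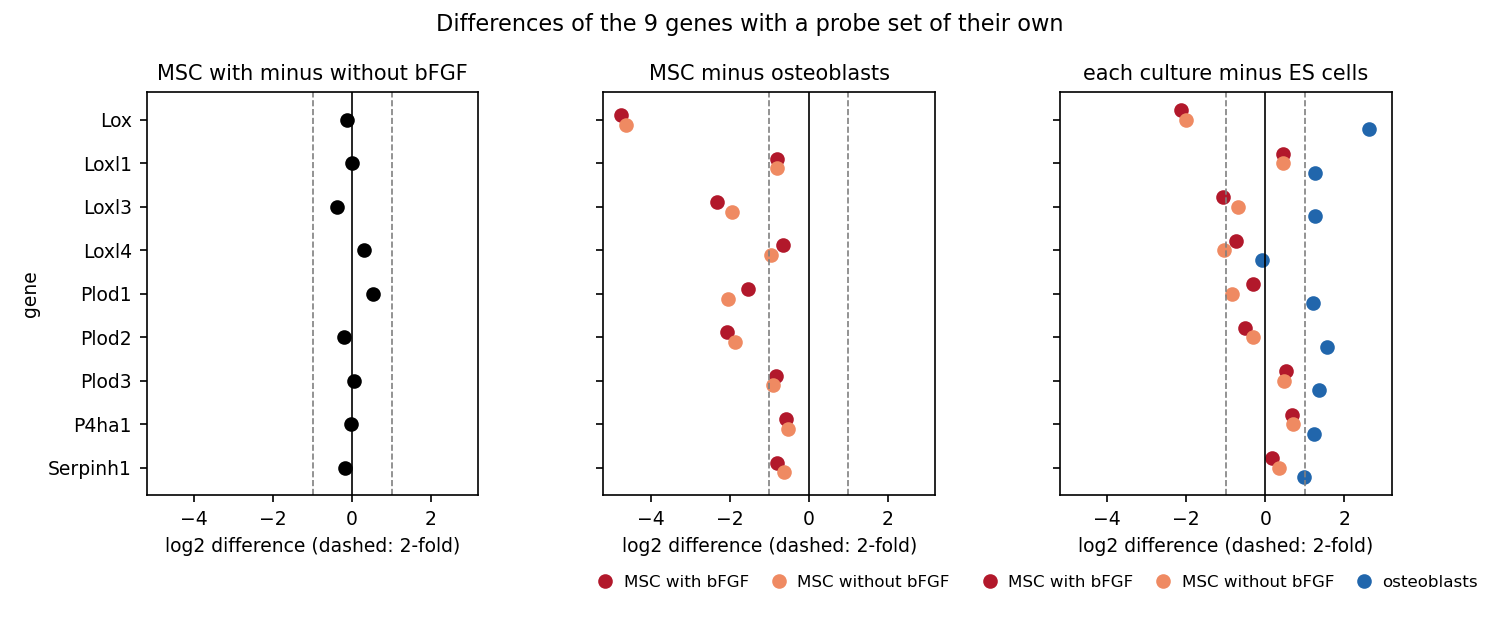
Log2 differences (horizontal axis) of the 9 genes with a probe set of their own, for MSC with minus without bFGF, for each MSC array minus osteoblasts, and for each culture minus ES cells; dashed lines mark 2-fold. All points lie within the dashed lines for bFGF, while Lox, Loxl3, Plod1 and Plod2 lie beyond them against osteoblasts; Serpinh1 in MSC with bFGF minus ES cells, at 0.18, became -0.01 after loess.

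**Figure D3:**
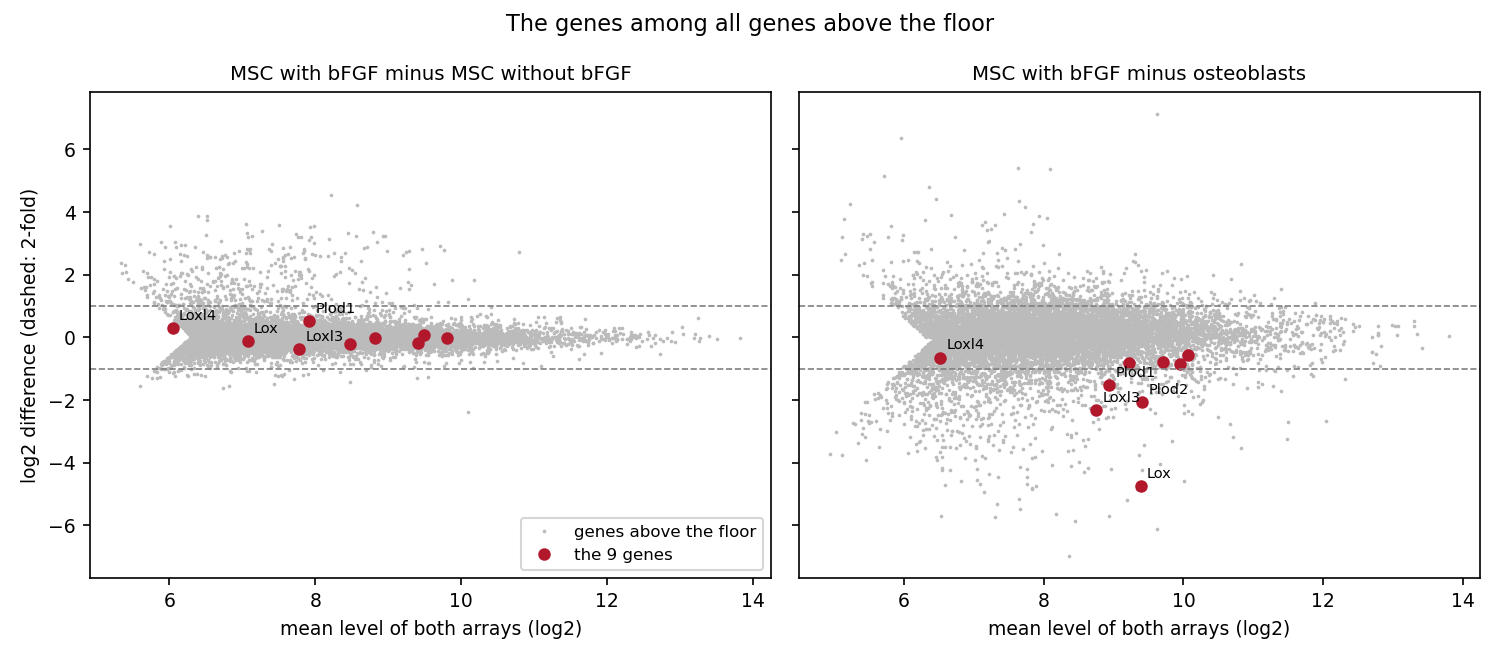
Log2 difference (vertical axis) against the mean level of both arrays (horizontal axis, log2) for every gene above the floor, with the 9 members in red, for MSC with bFGF minus MSC without bFGF and minus osteoblasts. Loxl4 is drawn in the left panel although both levels were under the floor. Lox lies at -4.75 in the right panel, among the lowest differences at its level, and at -0.13 in the left panel.

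Members differed in the range and order of their levels over the 4 arrays together. After each gene was centred on its mean, the Euclidean distance over the arrays was 0.10 between Loxl1 and Plod3, 0.23 between Loxl1 and Serpinh1, and 0.25 between Loxl1 and P4ha1. Loxl3 and Plod2 were 0.41 apart. Lox was farther from the other members, at 2.11 from Loxl3, 2.31 from Plod2, 2.45 from Plod1 and 3.58 from P4ha1. Since this distance is not scaled, the range of Lox, 4.75, sets it apart even from Loxl3, which had the same order of arrays. Members with small ranges are likewise brought close to each other. Loxl1, Plod3, P4ha1 and Serpinh1 thus ran alike over the arrays, with osteoblasts highest, ES cells lowest and the MSC arrays between, except that loess put Serpinh1 in MSC with bFGF at -0.01 from ES cells.

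Among all 11678 genes above the floor on at least 1 array, 15 lay within a distance of 1 of Lox. The nearest were Ccdc80 at 0.38, Itgbl1 at 0.58 and Apoe, a lipid transport protein, at 0.63. Ccdc80 read 7.28 in MSC with bFGF, 7.26 in MSC without bFGF, 11.53 in osteoblasts and 9.30 in ES cells, close to the levels of Lox in shape. Within the same distance lay 473 genes for Loxl3, 674 for Plod2 and 947 for Plod1. For Loxl3 the nearest were the matrix protein Ecm1 and the sugar reductase Dcxr, both at 0.08, and Ndrg4 at 0.14. Ndrg4 was under the floor in MSC with bFGF. For Plod2 they were Sap18 at 0.13, the folate receptor Folr2 at 0.16 and Reps2 at 0.18. For Plod1 they were the amino acid transporter Slc16a10 at 0.02, Trim14 at 0.10 and Adssl1 at 0.10. Itgbl1, Folr2, Reps2, Slc16a10 and Trim14 lay above the floor in osteoblasts alone, so their distances rest on background levels on the other 3 arrays. The distance is not scaled for range, so the numbers of neighbours of Lox, with a range of 4.75, and of the other members are not comparable.

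The substrates of these enzymes gave a measure of size. Beside osteoblasts, 7 of 9 fibrillar collagen chain genes were 2-fold or more lower in MSC with bFGF and 6 in MSC without bFGF. Over all genes counted, 9.71% and 13.3% were. The medians of the chains were -1.83 and -1.61. Col1a1, the main chain of bone collagen, differed by -3.54 with bFGF and -3.37 without, and its partner Col1a2 by -1.33 and -0.82. The difference of Lox was below those of all 9 chains in both MSC arrays against osteoblasts. It stood at -2.92 from the chain median in MSC with bFGF and at -3.02 in MSC without bFGF. Loxl1, Plod3, P4ha1 and Serpinh1 were 1.02, 0.99, 1.26 and 1.04 above the chain median in MSC with bFGF, and 0.80, 0.71, 1.07 and 0.99 above it in MSC without bFGF. The MSC arrays differed from osteoblasts more in Lox, and less in these 4 genes, than in the middle chain. Against ES cells, Lox was again below all 9 chains in both MSC arrays. With bFGF against without, all 9 chains were below 0, with a median of -0.18, and Col3a1 was lower by 1.20 on the log2 scale. Plod1, at 0.52, Plod3, at 0.06, Loxl1, at -0.006, and P4ha1, at -0.035, were above all 9 chains there. Loxl4 was too, with both levels under the floor. P4ha1 was close to the nearest chain, Col5a1, at -0.039.

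**Figure D4:**
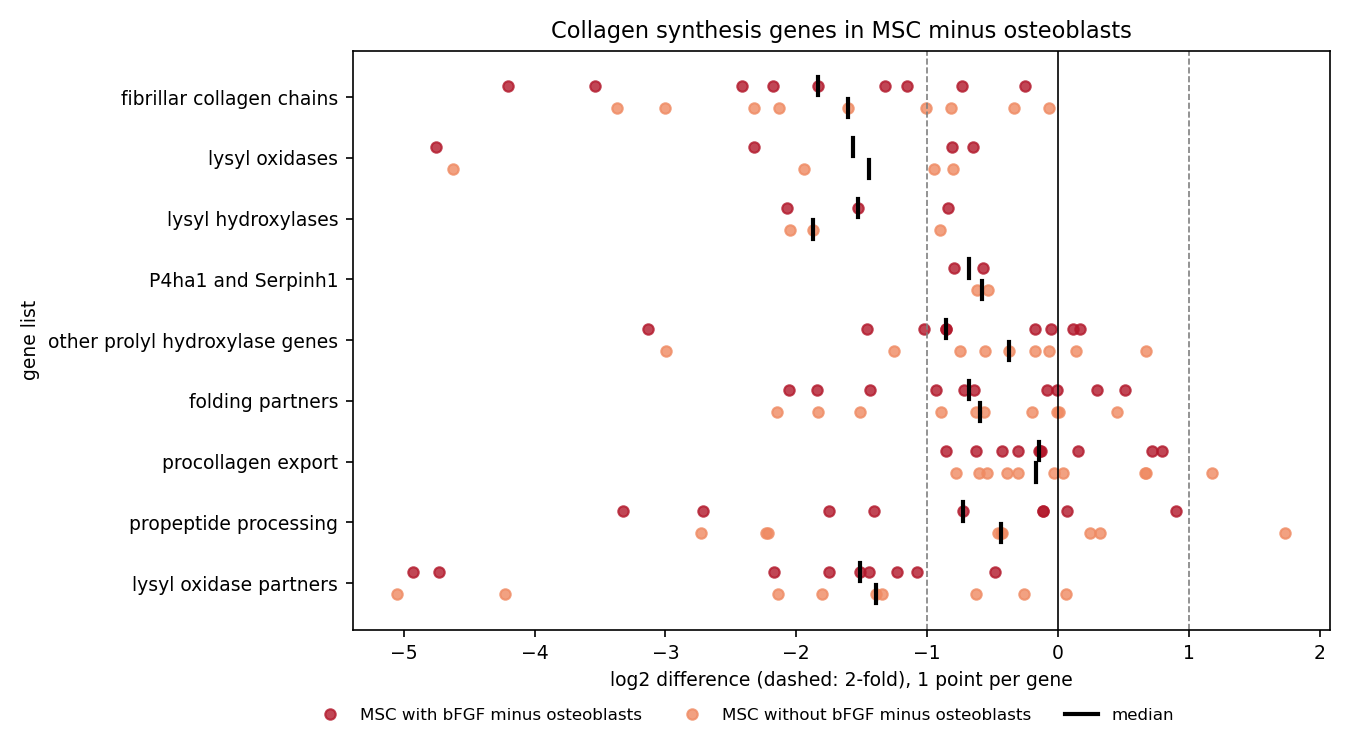
Log2 differences (horizontal axis) of MSC with bFGF and of MSC without bFGF minus osteoblasts, for the members and for 6 further lists of collagen synthesis genes, with 1 point per gene and a bar for each list's median; dashed lines mark 2-fold. The export genes centre near 0, at -0.14 with bFGF and -0.17 without, while the fibrillar chains centre at -1.83 and -1.61. The row of folding partners also holds Colgalt1, Colgalt2, Tmem38b and Creb3l1.

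The prolyl hydroxylase genes beside P4ha1 were mostly within 2-fold of osteoblasts. Of 9 measured, 3 were 2-fold or more lower in MSC with bFGF and 2 in MSC without bFGF, with 0 higher in either. Over all genes counted, 9.71% with bFGF and 13.3% without were lower. The list medians were -0.86 and -0.37, against 0.09 over all genes counted. P4ha3, another catalytic subunit, was lowest, at 5.65 in MSC with bFGF, 5.79 in MSC without bFGF, 8.78 in osteoblasts and 6.45 in ES cells. Its difference from osteoblasts was -3.13 with bFGF and -3.00 without, with the MSC levels under the floor. P3h1, the prolyl 3-hydroxylase, differed by -1.46 and -1.26, and its partner Crtap by -1.02 in MSC with bFGF and -0.56 in MSC without bFGF. Against ES cells, 8 of 9 lay above the floor and 0 passed 2-fold in either MSC array. Between 10.4% and 11.8% of all genes counted did so in each direction. Osteoblasts had 3 higher, where 12.3% of all genes counted were, P4ha3 by 2.33, P3h3 by 1.57 and P3h1 by 1.26.

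A further list held folding partners of collagen, the sugar-attaching enzymes Colgalt1 and Colgalt2, and the genes Tmem38b and Creb3l1. Of its 10 measured genes, 9 lay above the floor beside osteoblasts, and Colgalt2 lay under it on every array. The list medians were -0.68 with bFGF and -0.60 without. Lower by 2-fold or more in each MSC array were 3 genes, where 9.71% of all genes counted were with bFGF and 13.3% without. These were the prolyl isomerases Fkbp7, at -2.06 with bFGF and -2.15 without, and Fkbp14, at -1.84 and -1.83, and the transcription factor Creb3l1, at -1.43 and -1.51, which acts on collagen genes in bone. Fkbp7 and Fkbp14 were also higher in osteoblasts than in ES cells, by 2.11 and 1.97. Hspa5, a general chaperone named after its values were seen, differed from osteoblasts by 0.51 in MSC with bFGF and 0.45 in MSC without bFGF. For procollagen export, 9 of 10 genes lay above the floor and 0 passed 2-fold between MSC with bFGF and osteoblasts. Over all genes counted, 9.71% were lower and 7.5% higher there. The list medians were -0.14 with bFGF and -0.17 without. Mia3, or TANGO1, which loads procollagen into transport carriers, was higher in MSC without bFGF than in osteoblasts by 1.17, and differed by 0.80 in MSC with bFGF.

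Beside osteoblasts, 6 of the 9 propeptide processing genes that were measured lay above the floor in each comparison. By 2-fold or more, 4 were lower and 0 higher with bFGF, while MSC without bFGF had 3 lower and 1 higher. Of all genes counted, 9.71% were lower and 7.5% higher with bFGF, and 13.3% were lower and 8.17% higher without. The medians over all 9 were -0.73 with bFGF and -0.44 without, and they include genes under the floor on every array. The median with bFGF was itself the difference of such a gene, so it rests on background levels. Bmp1, the protease that removes the carboxyl propeptide and also activates the Lox precursor, read 7.35 in MSC with bFGF, 7.83 in MSC without bFGF, 10.06 in osteoblasts and 9.80 in ES cells. It was thus low in both MSC arrays and similar in the controls, with differences from osteoblasts of -2.72 and -2.23. The related protease Tll1 differed from osteoblasts by -3.32 with bFGF and -2.73 without, with MSC levels under the floor. The amino propeptidase Adamts14 went the other way, at 8.09 in MSC with bFGF, 8.93 in MSC without bFGF, 7.20 in osteoblasts and 6.71 in ES cells. Its difference from osteoblasts was 0.90 with bFGF, under 2-fold, and 1.74 without. It was higher than in ES cells by 1.38 and 2.22 in the MSC arrays.

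Of 9 measured genes for proteins that bind lysyl oxidases or guide them to fibres, 8 were lower by 2-fold or more in MSC with bFGF and 6 in MSC without bFGF beside osteoblasts, where 9.71% and 13.3% of all genes counted were. The medians were -1.51 and -1.39. Fn1, or fibronectin, named after its values were seen, differed by -0.48 with bFGF and 0.06 without. Postn, a matricellular protein that brings Bmp1 to Lox, differed by -4.92 and -5.05, and the small proteoglycan Fmod, which binds Lox and collagen, by -4.73 and -4.23. Both had MSC levels under the floor. Tnc, or tenascin C, differed by -2.17 and -2.14. Against ES cells Postn and Tnc were the partners 2-fold or more lower in both MSC arrays, Postn at -3.32 with bFGF and -3.44 without, and Tnc at -2.55 and -2.52. Of all genes counted, 10.6% with bFGF and 11.8% without were lower than in ES cells by that much.

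Lists of genes that share known inducers with the members were mixed. Lox, Plod1, Plod2 and P4ha1 are known targets of hypoxia-inducible factors, and 15 other hypoxia targets were measured. Beside osteoblasts, 12 of the 15 lay above the floor in each comparison. MSC with bFGF had 2 higher and 2 lower by 2-fold or more, where 7.5% of all genes counted were higher and 9.71% lower. MSC without bFGF had 2 higher and 3 lower, where 8.17% were higher and 13.3% lower. The medians of the 15 were -0.25 and -0.50. Ndrg1 was higher by 1.76 with bFGF and 1.79 without, and Vegfa by 1.03 and 1.08, while Adm differed by -2.25 and -2.20. Of 11 measured TGF-beta targets, 7 were lower by 2-fold or more in MSC with bFGF and 8 in MSC without bFGF, against the same shares. In both, 0 were higher, and the medians were -1.20 and -1.74. Fn1 and Tnc stood both on this list and on that of the lysyl oxidase partners. Acta2 differed by -6.10 and -6.22, Tagln by -5.85 and -5.41 and Ccn2 by -3.19 and -3.69. The MSC levels of Tagln were under the floor, so its size depends on background. Of 11 heat shock targets, which share an inducer with Serpinh1, 1 was higher and 1 lower in each MSC array beside osteoblasts. These counts were near the shares of all genes. Between the MSC arrays, the hypoxia target Pdk1, at 1.21, and the TGF-beta target Tgfbi, at 2.68, were the genes of these 3 lists that passed 2-fold. Over all genes counted, 4.09% were higher with bFGF by 2-fold or more. The median of the TGF-beta targets was 0.14 between these arrays, so Tgfbi does not stand for its list. Of 12 macrophage markers, 11 were also higher with bFGF by 2-fold or more, and the part of macrophage content in the difference of Tgfbi was not tested.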

How the data were processed

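RNA of 4 mouse cultures was measured on an Affymetrix whole-transcript array, with 1 array per group. The deposited table holds log2 levels per probe set, made by the authors with Affymetrix Expression Console and RMA, per the submitters' processing notes. RMA corrects background, makes array distributions alike and summarises probes, so a change in total RNA per cell would not show. The log2 scale was inferred from the values, 1.40 to 14.28, and neither versions nor a genome build is named in the sources used here. Of 35556 probe sets, the platform annotation gave 21789 a single symbol, 1621 several and 12146 none. Array medians ran from 5.84 to 5.96, and the number of arrays limits the precision.

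Each of 19938 genes took its probe set with the highest mean. Differences were counted at 2-fold where the higher array lay above its floor. The members and all lists were chosen with earlier results of these data known. Named genes were all members, up to 4 genes each way past 2-fold per pathway list and comparison, the 3 genes nearest in pattern to each member with a range of at least 2, and defining or leading marker genes. Fkbp10, Adamts2 and Efemp2 had no probe set with a single symbol. Counting was tested on simulated data. Alternatives were the mean of probe sets, thresholds of 1.5-fold and 4-fold, the floor left out or set at the 75th percentile, centring, loess (span 0.3) and repeated quantile normalization; counting the shared probe set as Loxl2 was added after seeing the data. Calculations ran in Python 3.11.15 with pandas 2.3.3, numpy 2.4.6, statsmodels 0.14.6, scipy 1.17.1 and matplotlib 3.10.9. Positions and promoters came from RefSeq tables of GRCm38.p6.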

Additional observations from a re-analysis of the deposited data

How the results depend on the processing

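No paired analysis was possible because each group had 1 array, and leaving out an array leaves no group. At 1.5-fold, the members counted as lower than in osteoblasts were 8 in MSC with bFGF and 8 in MSC without bFGF, against 4 in each at 2-fold. Over all genes counted, 18.4% with bFGF and 20.7% without were lower at 1.5-fold, against 9.71% and 13.3% at 2-fold. Against ES cells, 1.5-fold gave 1 higher member in each MSC array, where 24.1% of genes were higher with bFGF and 23.7% without. It gave 4 lower members in MSC without bFGF, where 19.8% of genes were lower. At 4-fold, 1 member was higher in osteoblasts than in ES cells in place of 7, where 3.39% of genes were. Then 2 were lower in MSC without bFGF than in osteoblasts, where 5.36% of genes were. Compared with ES cells, 1 was lower in MSC with bFGF and 0 in MSC without bFGF, where 3.70% and 4.24% of genes were. The count of 2 lower in MSC without bFGF than in ES cells became 1, with Loxl4 lost, with the mean of probe sets, a floor at the 75th percentile, loess or repeated quantile normalization. Of 54 member differences, the signs of 2 turned: Loxl4 in osteoblasts minus ES cells, to 0.20 with the mean of probe sets, and Serpinh1 in MSC with bFGF minus ES cells, to -0.01 with loess. Counting the shared probe set as Loxl2 moved no member count by over 1.5 times. Over all genes, MSC with bFGF minus MSC without bFGF had 429 higher and 49 lower; no floor gave 189 lower, the 75th percentile floor 172 and 17, 1.5-fold 781 and 350, and 4-fold 160 and 1. In the other comparisons the 75th percentile floor gave 498 to 893 higher, against 810 to 1342, and 554 to 825 lower, against 965 to 1454. That floor also counted fewer genes, 5748 in place of 10798 for MSC with bFGF minus osteoblasts. There the shares were 8.66% higher and 10.3% lower, against 7.50% and 9.71%. For MSC with bFGF minus ES cells, the lower share went from 10.6% to 9.55%. Levels under the floor limit the size of differences for Loxl4, Loxl2, P4ha3, Tll1, Postn, Fmod and Tagln.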
